A study of Homo sapiens with 23 samples.

Results

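BRD2 binds acetylated histone tails. A small set of its called regions in NCI-H23 cells overlapped no called peak of H4K5acK8ac, a mark of 2 acetyl groups on 1 H4 tail (lysines 5 and 8). The set holds 368 of the 18087 regions called in both BRD2 peak lists (2.03%). A member is the stretch shared by a BRD2 peak of replicate 1 and a BRD2 peak of replicate 2 that overlaps, by even 1 bp, no H4K5acK8ac peak of either replicate. A further 115 shared regions overlapped H4K5acK8ac in 1 list, and 17604 overlapped it in both. The members were thus chosen by measured peaks of BRD2 and H4K5acK8ac, so values of these 2 targets are given below as a description only.

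BRD2 belongs to the BET family, whose paired bromodomains recognise acetyl-lysine, and its bromodomains are known for a preference for multiply acetylated H4 tails. Acetylated H4 and H3K27ac mark active promoters and enhancers, H3K4me3 marks active promoters, H3K4me1 marks enhancers and promoter flanks, and H3K36me3 covers the bodies of transcribed genes. H3K9me3 marks constitutive heterochromatin, which is concentrated in the satellite repeats beside centromeres and on the long arm of Y. H3K27me3 is laid down by the Polycomb complex over silenced genes.

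NCI-H23 is an established non-small cell lung cancer line, and all values come from this 1 line. Chromatin immunoprecipitation with sequencing was done for 11 targets with 2 libraries each: BRD2, H4K5acK8ac (with a mouse monoclonal antibody), 4 single acetylation marks (H3K27ac, H4K5ac, H4K8ac and H4K12ac) and 5 methylation marks (H3K4me1, H3K4me3, H3K9me3, H3K27me3 and H3K36me3). An input library was also made and was not analysed here. The treatment protocol names the BET inhibitor JQ1 and DMSO, but no sample label ties a library to either, so the libraries of a target were taken as 2 replicates, and whether they are separate cultures is not stated. With 2 libraries a target, an exact two-sided permutation test cannot go below p = 0.333, so differences are given against the spread between lists and without a p-value. Intervals on shares of regions are 95% Wilson intervals, which treat regions as independent and cover counting error only, while neighbouring members share a locus. The lists give no read numbers, so the depth is unknown. They held between 21580 and 277462 peaks.

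The members carried other marks than the rest of the shared regions. H3K9me3 was the commonest of the 9. It had a peak at 119 members in list 1 and 127 in list 2, or 33.4% ± 1.54 (SD, n = 2 lists), and 107 members carried it in both lists (29.1%, interval 24.7% to 33.9%), where 1.8% of all shared regions did. Among the regions with H4K5acK8ac in both lists the share was 0.977% in list 1 and 1.27% in list 2, so the gap was far wider than the spread between lists. H3K27me3 was present at 68 and 76 members, and in both lists at 54 (14.7%, against 0.962% of all shared regions). Either repressive mark was found at 129 members (35.1%, against 2.15%), and both together at 32. The mark lists cover little of the genome: H3K9me3 peaks called in both lists spanned 2.97% of the summed chromosome lengths reached by peaks, and H3K27me3 peaks 2.40%.

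Active marks were scarcer at the members than at all shared regions. H4K5ac was found in both lists at 9 members (2.45%, against 96.8% of all shared regions), H4K8ac at 15 (4.08%, against 65.5%), H4K12ac at 9 (2.45%, against 93.1%) and H3K27ac at 7 (1.90%, against 95.5%). At least 1 of these 4 marks was called in both lists at 31 members (8.42%, interval 5.998% to 11.7%, against 97.6%), and no member had all 4. These shares are tied to the rule, because nearly every region with H4K5acK8ac in both lists also had H4K5ac in both (99.3%). The count depended on asking for both lists: list 1 alone gave at least 1 acetylation mark to 19.3% of members and list 2 alone to 17.4%. H4K8ac differed most between its lists, with 54 members in list 1 and 30 in list 2. The first H4K8ac list is also the longer, at 224726 peaks against 116852. Peaks called in both lists spanned 1.61% of the genome reached by peaks for H4K5ac, 0.692% for H4K8ac, 0.830% for H4K12ac and 2.28% for H3K27ac. That span was inside the members' intervals for H4K5ac (1.29% to 4.58%) and H3K27ac (0.924% to 3.87%). It was below those for H4K8ac (2.49% to 6.62%) and H4K12ac (1.29% to 4.58%). The span counts bases and the shares count regions, so the comparison is rough.

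Of the methylation marks of active chromatin, H3K4me1 was called in both lists at 13 members (3.53%, against 39.3% of all shared regions) and H3K4me3 at 3 (0.815%, against 83.1%). H3K36me3 went the other way, with 27 members (7.34%, interval 5.09% to 10.5%) against 2.26% of all shared regions. The single H3K36me3 lists held 30 and 33 members, or 8.56% ± 0.576, against 2.85% and 2.93% at regions with H4K5acK8ac in both lists. H3K36me3 peaks called in both lists span 5.50% of the genome reached by peaks, a share inside the members' interval. For H3K4me1 and H3K4me3 the spans were 2.92% and 1.28%, also inside the members' intervals (2.08% to 5.95% and 0.278% to 2.37%). None of the 9 marks was called in both lists at 189 members (51.4%). Of all shared regions, 97.6% had at least 1 of the 4 acetylation marks in both lists. No peak in any of the 18 lists was met by 98 members (26.6%, against 0.558% of all shared regions).

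**Figure D1:**
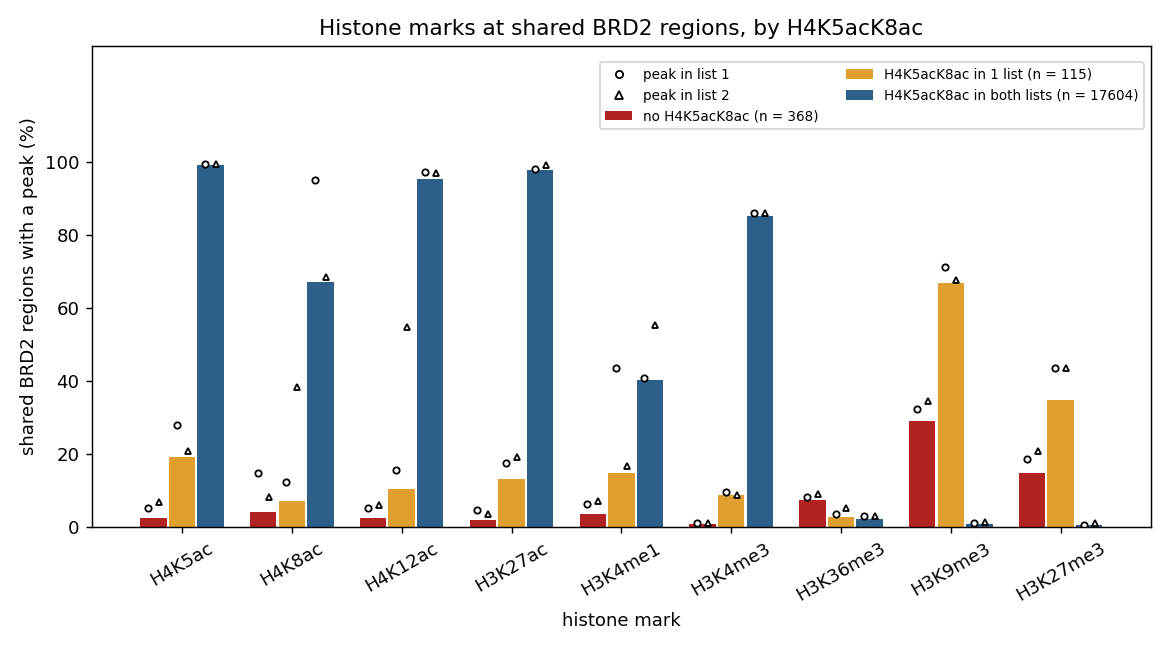
Percentage of shared BRD2 regions with a peak of each histone mark, by whether H4K5acK8ac was absent (red), in 1 list (yellow) or in both lists (blue). Bars count peaks in both lists of the mark, and circles and triangles count list 1 and list 2 alone. H3K9me3 stood at 29.1% of members and 67.0% of regions with H4K5acK8ac in 1 list, while H3K4me3 stood at 0.815% of members and 85.3% of regions with H4K5acK8ac in both.

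Where the members lay split them into 3 groups. No annotation of centromeres in the files' build, hg19 in the submitters' processing notes, was used here. The longest stretch without a peak in any of the 22 lists stood in for the centromere and the unassembled bases around it on each chromosome except Y, whose longest stretch is on its long arm. Chromosomes 21 and X each had 2 stretches over 2.5 Mb, and only the longer was used. On chromosome 21 the longer precedes the first peak, and which of the 2 holds the centromere was not checked. Off Y, 67 of 345 members (19.4%, interval 15.6% to 23.9%) lay within 5 Mb of that stretch, against 6.9% of all shared regions and 6.26% of those with H4K5acK8ac in both lists. Within 1 Mb the members' share was 13.0% (45 members), against 1.67% of all shared regions. Y held 23 members, which were 60.5% of its 38 shared regions. The other 278 members lay elsewhere. The control used in calling the peaks is not given in the sources used here, and how the input signal near the stretch and on Y bears on the peaks there was not tested.

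H3K9me3 followed this split. It was called in both lists at 47 of the 67 members near the centromeric stretch (70.1%), at 23 of 23 on Y, and at 37 of the 278 elsewhere (13.3%). Per list, 53 and 49 of the 67 carried it near the stretch, so the spread between lists was small beside the difference from the members elsewhere. The H3K9me3 peaks themselves had a high −log10 q near the stretch and on Y. By −log10 q, the median peak met by a member near the stretch ranked at percentile 99.7 of its own list in both replicates, and on Y at percentiles 99.98 and 99.96, with median widths of 6789 and 5979 bp. Elsewhere the percentiles were 80.9 and 85.9. Median H3K9me3 fold did not follow in both lists: it was 4.16 and 3.20 near the stretch against 3.83 and 3.72 elsewhere. On Y it was 4.60 and 4.03. Neighbouring members can meet the same H3K9me3 peak, as 2 Y members did in list 1 (fold 4.60, −log10 q 64.3). The medians thus count some peaks more than once. H3K27me3 was found at 9 of 67 members near the stretch (13.4%), 37 of 278 elsewhere (13.3%) and 8 of 23 on Y (34.8%, interval 18.8% to 55.1%). The single H3K27me3 lists gave 43.5% and 52.2% on Y against 16.9% and 19.4% elsewhere. No Y member carried an active mark in both lists, and single-list peaks were limited to H4K12ac (1 member), H3K27ac (1) and H3K4me1 (3).

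**Figure D2:**
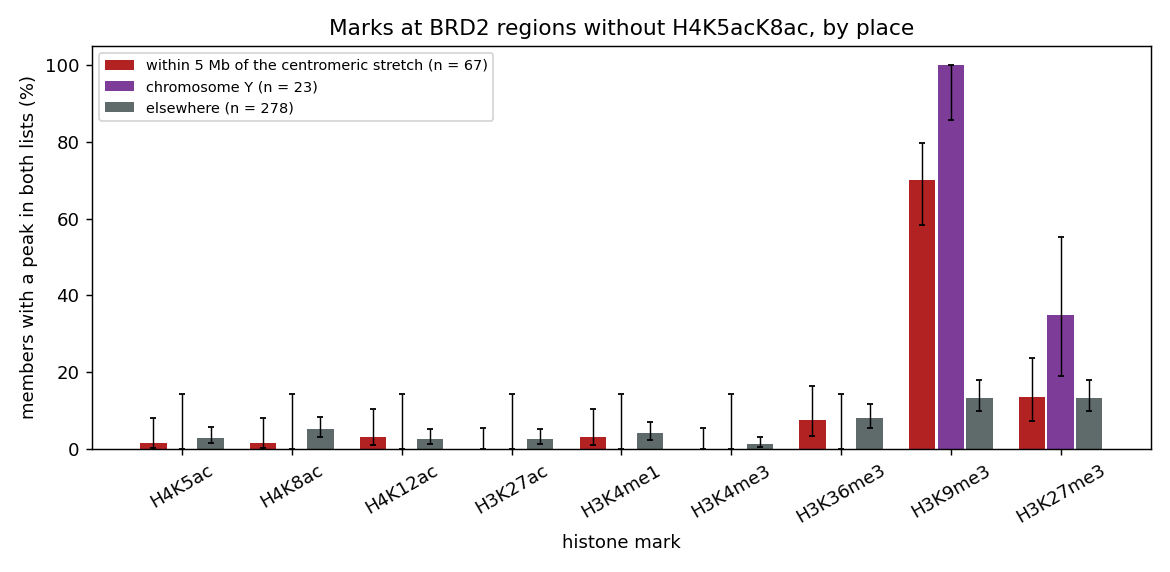
Percentage of members with a peak of each mark in both lists, for members within 5 Mb of the centromeric stretch, on Y, and elsewhere, with 95% Wilson intervals as error bars. H3K9me3 runs from 13.3% elsewhere to 70.1% near the stretch and 100% on Y.

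H3K9me3 at these places was not particular to the members. On Y it was also called in both lists at all 7 regions with H4K5acK8ac in 1 list and at 6 of the 8 with H4K5acK8ac in both. Within 1 Mb of the stretch, 86.7% of the 45 members carried it in both lists, as did 89.7% of the 68 regions with H4K5acK8ac in 1 list and 34 of the 189 with H4K5acK8ac in both. The lists of H4K5acK8ac also parted there. Of the 91 shared regions with H4K5acK8ac in list 1 alone, 76 of the 86 off Y and the mitochondrial genome lay within 5 Mb of the stretch (88.4%), and 75 of the 91 carried H3K9me3 (82.4%). None of the 20 corresponding regions with the mark in list 2 alone lay there, and 2 of all 24 carried H3K9me3. Had only H4K5acK8ac list 2 defined the mark, 459 regions would have been members and 33.2% of those off Y would have lain within 5 Mb, and with list 1 alone the figures were 392 and 18.4%. Library and place cannot be told apart for these 91 regions.

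Chromosome 2 held the most members, 60, which is 16.3% of the members against 7.77% of all shared regions. Chromosomes 7, 1, 12 and 3 followed with 32, 31, 30 and 29. Chromosome 1 held fewer members than its share of shared regions, 8.42% against 10.8%, while chromosome 3 held more, 7.88% against 4.55%. Chromosome 19, with 1297 shared regions, held 3 members, and chromosome 17, with 1326, held 10. Chromosome 13 had 1 member, and 15, 22 and X had 2 each. H3K9me3 in both lists was most common on Y (23 of 23 members), 16 (10 of 14), 4 (8 of 14), 18 (8 of 15) and 10 (9 of 18) among chromosomes with at least 10 members.

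**Figure D3:**
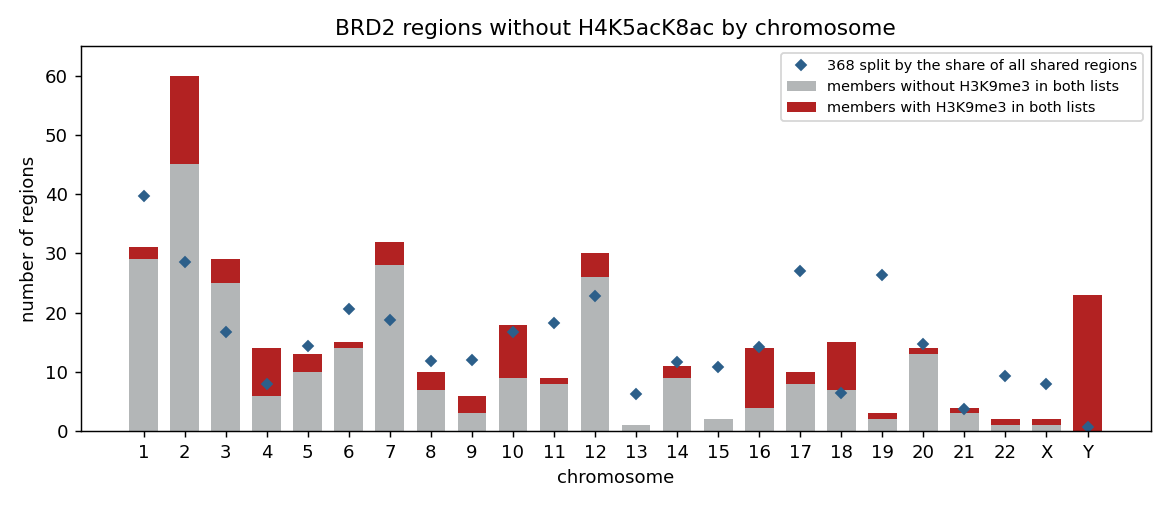
Number of members on each chromosome, split by H3K9me3 in both lists, with blue diamonds for the number each chromosome would hold if the 368 members were divided in proportion to all shared BRD2 regions. Chromosome 2 with 60 members and Y with 23 stand above their diamonds, and chromosome 19 with 3 stands below.

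Some members lay close together. With neighbours joined when under 100 kb apart, 94 members (25.5%) fell into 27 clusters, of which 18 were pairs and 9 had 3 or more members, 58 in all. Of these 58, 31 lay near the centromeric stretch, 20 on Y and 7 elsewhere. The same share was not computed for all shared regions, so 25.5% cannot be called high or low. The largest cluster was on Y between positions 13458321 and 13486234, a span of 27.9 kb, where 15 of 25 shared regions were members and all 15 carried H3K9me3 in both lists. The second, on chromosome 10 between 42363272 and 42394953, held 8 members of 17 shared regions and began 8.50 kb from the end of the peak-free stretch. The third, on chromosome 16 between 46386215 and 46427871, also held 8 of 17 and began 0.525 kb from it. All 8 members of each carried H3K9me3, and none carried acetylation in both lists. Without H4K5acK8ac list 1, the clustered share of members was 39.0%.

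Other clusters, picked after their values were seen, show the range. The 5 members on chromosome 18 between 18510967 and 18515871 began 0.122 kb from the stretch, and all 5 carried both H3K9me3 and H3K27me3. A second Y cluster of 5 members, between 58977196 and 58997237, made up all 5 shared regions of its span, 5 with H3K9me3 and 4 with H3K27me3. The cluster of 7 on chromosome 2 between 132997396 and 133033539 was the only one of the 9 clusters of 3 or more that lay elsewhere: it was 37.7 Mb from the centromeric stretch of its chromosome, and 4 of its members carried H3K9me3 and 4 an acetylation mark in both lists. The cluster of 3 on chromosome 16 between 33950166 and 34021684 also held both, with H3K9me3 at 2 members and acetylation at 2. The last member of the chromosome 2 cluster, at 133033375 to 133033539, met peaks in 12 of the 18 lists, the most of any member. There H4K5ac (fold 1.56 and 3.05), H4K12ac (1.79 and 2.00), H3K27ac (2.39 and 1.78) and H3K4me1 (2.31 and 1.55) were called in both lists beside H3K9me3 (3.42 and 2.69), with H4K5acK8ac 710 bp away. The members with the next most lists included 2 neighbours on chromosome 16, both 1.33 to 1.34 Mb from the stretch. They lay at 33953174 to 33953337 with 10 lists and at 33950166 to 33950324 with 9. A member on chromosome 5 at 124536327 to 124536361, 75.1 Mb from the stretch, also met 9 lists. Repressive and acetylated peaks in both lists met at only 5 members in all.

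BRD2 itself, described here because it entered the rule, was weak at most members. The median −log10 q was 1.06 in list 1 and 1.46 in list 2, against 2.37 and 10.4 at regions with H4K5acK8ac in both lists, and the median fold enrichment was 2.80 and 3.11 against 3.85 and 7.81. The lower of a region's 2 −log10 q values was under 1.3 (a q above 0.05) at 272 members, between 1.3 and 5 at 91, and above that at 5. Members made up 5.11% of the shared regions in the weakest of these bins, 1.13% of the middle one and 0.105% of the strongest. The median member was 141 bp wide, against 281 bp.

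Among members, those with a higher BRD2 −log10 q more often carried H3K9me3, but not those with a higher BRD2 fold. H3K9me3 was called in both lists at 15.4% of the 272 members with the weakest BRD2, at 65.9% of the 91 in the middle bin and at 5 of 5 in the strongest. Regions with H4K5acK8ac in both lists stood at 1.05%, 0.482% and 1.06% in the same bins. The rise was not particular to the members: regions with H4K5acK8ac in 1 list stood at 15.4%, 71.7% and 97.2%. The members' bins also differed in place. Off Y, 10.1% of members in the weakest bin lay near the centromeric stretch, against 52.7% in the middle bin and 1 of 3 in the strongest. Y held 4, 17 and 2 members of the bins, and −log10 q was not separated from place. By fold enrichment the members with H3K9me3 were lower, at medians of 2.17 and 2.87 in the 2 BRD2 lists against 2.80 and 3.11 for all members. Members near the centromeric stretch and on Y had a higher lower −log10 q (median 1.76 and 2.08) than members elsewhere (0.73), at a lower fold enrichment in list 1 (2.23 and 1.98 against 2.88). Fold enrichment was read as the peak caller's ratio to its local background, so the 2 measures need not rank regions alike. With BRD2 peaks limited to a −log10 q of at least 1.3 in each list, 96 members were left, of which 68.8% carried a repressive mark, 4.17% H3K36me3 and 8.33% an acetylation mark. The summits of the 2 BRD2 replicates were 10 bp apart at the median member near the stretch, 14 bp on Y and 88.5 bp elsewhere.

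**Figure D4:**
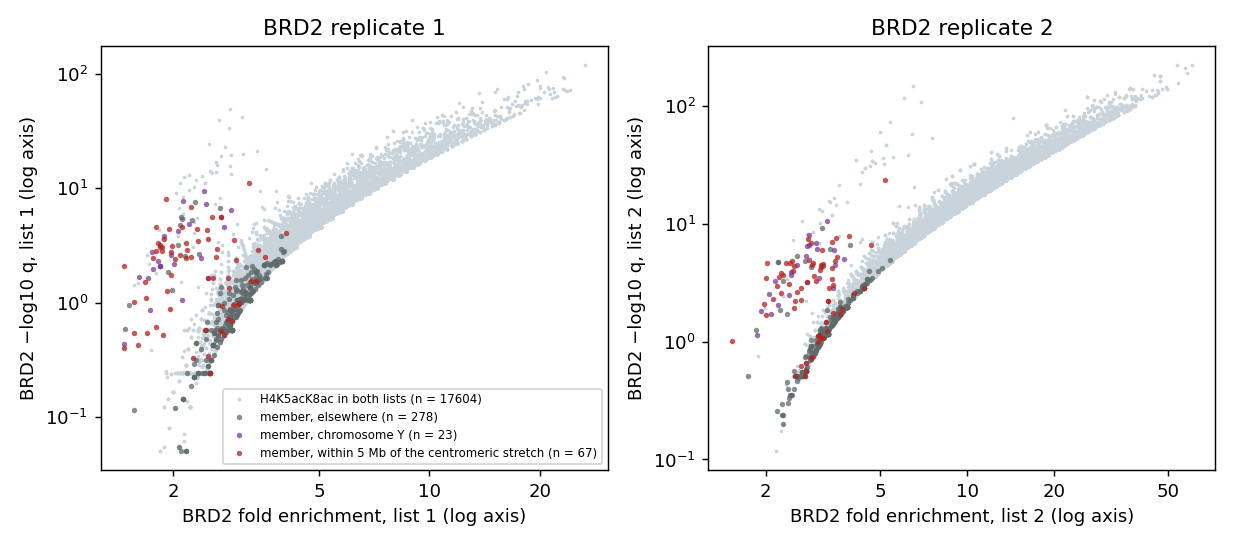
BRD2 fold enrichment against BRD2 −log10 q, both on log axes, for regions with H4K5acK8ac in both lists (grey) and for members by place, in replicate 1 (left) and replicate 2 (right). Many members near the centromeric stretch and on Y lie left of the main band, at a low fold for their q (median list 1 fold 2.23 and 1.98), while members elsewhere lie at its weak end.

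Of the 10 members with the highest BRD2 −log10 q in their weaker list, 9 carried H3K9me3 in both lists. The first lay on Y at 13469262 to 13469536, with BRD2 −log10 q of 9.47 and 10.6 and fold 2.42 and 3.27, and H3K9me3 fold of 4.60 and 4.75. H4K5acK8ac was 730 bp away. The second lay in the same cluster, at 13465820 to 13466205, with BRD2 −log10 q of 7.82 and 8.00. Clusters on Y and beside centromeres gave the third, on chromosome 10 at 42394343 to 42394615 (6.83 and 6.92), the sixth, on Y at 58993129 to 58993468 (4.90 and 5.31), the eighth, on chromosome 16 at 46386215 to 46386859 (8.11 and 4.67), and the ninth, on chromosome 10 at 42389273 to 42389462 (5.61 and 4.61). The H3K9me3 peak under the chromosome 16 member had a −log10 q of 108 and 77.7. The tenth lay 14.6 kb from the stretch of chromosome 2, at 92309481 to 92309846 (4.61 and 6.98).

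Members with a high BRD2 −log10 q and H3K9me3 were also seen away from centromeres, again at a low fold. The fourth of the 10 lay on chromosome 18 at 50319032 to 50319327, 31.8 Mb from the stretch and 187 kb from the nearest H4K5acK8ac peak, with BRD2 −log10 q of 5.62 and 9.26, BRD2 fold of 2.10 and 3.12 and H3K9me3 fold of 3.72 and 2.70. The fifth lay on chromosome 10 at 135500588 to 135500865, near the last peak of that chromosome, which ends at 135524481. Its BRD2 −log10 q was 7.66 and 5.33, its BRD2 fold 2.29 and 2.57 and its H3K9me3 fold 3.88 and 4.21. The seventh, on chromosome 2 at 133029654 to 133029839, was the 1 of the 10 without H3K9me3. It carried H4K5ac (fold 2.41 and 1.80), H4K8ac (2.15 and 2.41) and H4K12ac (2.39 and 2.47) in both lists, 344 bp from an H4K5acK8ac peak.

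The median member lay 10.5 kb from the nearest H4K5acK8ac peak of either list (15.7 kb for list 1 alone and 17.2 kb for list 2), with quartiles of 2.38 and 43.3 kb. Within 1 kb there were 58 members (15.8%), within 10 kb 179 (48.6%) and within 100 kb 317 (86.1%). By place, the medians were 3.14 kb near the centromeric stretch, 2.56 kb on Y and 14.9 kb elsewhere. The order of the first and last rested on H4K5acK8ac list 1. Members near the stretch lay at a median of 4.91 kb from the peaks of list 1 but 21.4 kb from those of list 2, and members elsewhere at 18.8 and 17.7 kb. On Y both lists gave short distances, 2.56 and 3.99 kb. The nearest BRD2 region that itself carried H4K5acK8ac in both lists was farther off than the nearest peak of the mark, at a median of 74.2 kb.

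**Figure D5:**
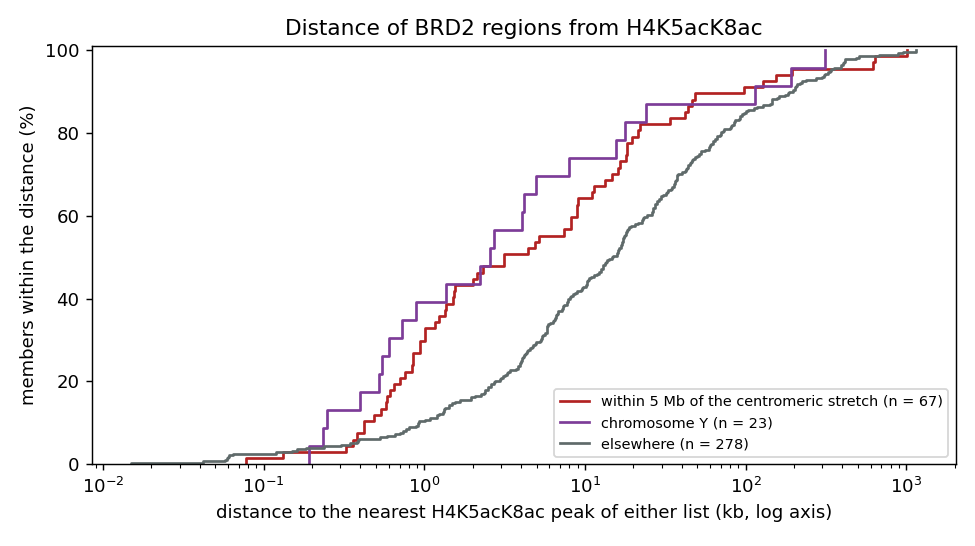
Cumulative percentage of members within a given distance (kb, log axis) of the nearest H4K5acK8ac peak of either list, by place. Members near the centromeric stretch and on Y reach 64.2% and 73.9% within 10 kb, and members elsewhere 42.8%; against list 2 alone the 3 shares are 38.8%, 73.9% and 39.2%.

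Marks changed along this distance. Acetylation in both lists was found at 14 of the 58 members within 1 kb (24.1%), 14 of the 121 between 1 and 10 kb (11.6%), 3 of the 138 between 10 and 100 kb (2.17%) and none of the 51 beyond. H3K9me3 was found at 53.4% of the nearest class and at 29.8%, 18.1% and 29.4% of the others in the same order. Of the 58 nearest members, 20 lay near the centromeric stretch and 9 on Y. H3K27me3 was found at 13.8%, 10.7%, 15.9% and 21.6% of the 4 classes. H3K36me3 was absent within 1 kb and beyond 100 kb, with 10 and 17 members between.

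The farthest member from the mark lay on chromosome 2 at 78291315 to 78291473, 1.15 Mb away, and met no peak in the 18 lists (BRD2 −log10 q 0.586 and 1.09). The third farthest, 957 kb from the mark, lay on the same chromosome at 78488117 to 78488202 and likewise met none (0.676 and 0.516). The second farthest, 1.01 Mb away, was on chromosome 21 at 14342455 to 14342618, with BRD2 −log10 q of 3.53 and 3.02 and H3K9me3 fold of 3.59 and 4.31. It lay 4.29 kb from another peak-free stretch of that chromosome, whose longest one precedes the first peak. Its place was set by that longest stretch, 4.92 Mb away.

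Members sorted by mark also differed in distance and place. The 107 with H3K9me3 lay at a median of 4.92 kb from H4K5acK8ac of either list, and 67 of them (62.6%) were in clusters. The 37 of them elsewhere were at a median of 18.5 kb. The 22 members with H3K27me3 but not H3K9me3 were much farther, at a median of 70.0 kb, and 21 of the 22 lay elsewhere. The 27 with H3K36me3 were spread over 14 chromosomes at a median of 12.2 kb, 22 of them elsewhere and 1 in a cluster. Their H3K36me3 peaks had a median fold of 5.86 and 5.68 and ranked at percentiles 87.2 and 85.0 of their lists. H3K36me3 and H3K9me3 met at 3 members. The 31 acetylated members sat close to H4K5acK8ac, at a median of 1.19 kb, and 28 of them were within 10 kb. The lower BRD2 −log10 q was under 1.3 at 23 of the 31.

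At the members with a peak, the median H4K5ac peak stood at percentiles 46.2 and 43.3 of its lists, H4K8ac at 62.7 and 34.0, H4K12ac at 45.7 and 61.5, and H3K27ac at 57.8 and 47.0, whereas H3K9me3 peaks stood at 99.4 and 97.8. The 3 members with H3K4me3 in both lists, named here because there were so few, all lay at the edge of an H4K5acK8ac peak. They were on chromosome 17 at 58678303 to 58678443 (15 bp from the mark, H3K4me3 fold 89.3 and 102), on chromosome 5 at 124536327 to 124536361 (42 bp, 17.99 and 22.5) and on chromosome 7 at 993216 to 993373 (59 bp, 69.1 and 75.8). The first 2 are also the members nearest to exclusion. Just outside the rule, regions on chromosome 1 at 84765109 and chromosome 10 at 99629420 overlapped H4K5acK8ac by 1 bp and carried peaks in 10 lists each. A whole BRD2 peak reached the mark outside the shared stretch at 8 members, 2 through list 1 and 6 through list 2.

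The 98 members without any peak in the 18 lists lay almost all elsewhere (96), over 21 chromosomes, at a median of 17.1 kb from H4K5acK8ac. In 86 of them (87.8%) the lower BRD2 −log10 q was under 1.3, and the median width was 114 bp. They made up 34.5% of the members elsewhere, 2 of the 67 near the stretch and none on Y.

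A BRD2 peak without H4K5acK8ac was mostly not shared: 35253 such peaks of BRD2 list 1 and 15231 of list 2 had no partner, beside 364 and 360 whole peaks that held members. With or without the mark, the 2 lists held 56830 and 45730 BRD2 peaks. These gave the 18087 shared regions, 17604 of them with H4K5acK8ac in both lists. Counted over whole peaks, H3K9me3 in both lists was found at 29.4% and 29.7% of the peaks with a partner and at 8.73% and 9.42% of those without. The 2 lists differed by less than 1 percentage point on either side. The same direction was seen for nearness to the centromeric stretch (19.3% and 19.6% against 6.42% and 7.68%), and Y held 6.04% and 6.39% of the partnered peaks against 0.0738% and 0.0525%. At least 1 of the 4 acetylation marks was also more common at partnered peaks, at 9.34% and 8.33% against 4.23% and 5.02%. H4K5ac stood at 3.30% and 2.5% against 0.990% and 1.25%, and H4K12ac at 2.47% and 2.5% against 0.434% and 0.460%. H4K8ac stood at 3.85% and 4.44% against 2.00% and 2.27%. H3K27ac differed little and not in the same direction in the 2 lists, at 1.92% and 1.67% against 1.54% and 1.88%. The same held for H3K4me1, at 3.30% and 4.44% against 3.91% and 4.23%. H3K27me3 stood at 15.1% and 14.7% against 8.25% and 9.67%, H3K36me3 at 8.24% and 8.06% against 9.44% and 8.88%, and no peak in any of the 18 lists at 24.7% and 24.4% against 45.7% and 43.0%. Elsewhere in the genome the difference in H3K9me3 was smaller, at 13.8% and 14.0% of partnered peaks against 8.00% and 8.62%, and H3K36me3 stood at 9.06% and 8.86% against 9.42% and 8.83%. BRD2 −log10 q also differed, with medians of 1.06 and 1.46 for partnered peaks and 0.644 and 1.16 for the others. Its part in the differences was not tested.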

How the data were processed

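Each of the 22 libraries had its own narrowPeak list. BWA, MACS2 and build hg19 are named in the submitters' processing notes; versions, settings, filters and the control are not given in the sources used here. By the narrowPeak layout of the deposited lists, column 7 is fold enrichment, the ratio of pileup to a local background, columns 8 and 9 are −log10 p and −log10 q, and column 10 is the summit's offset from the peak start in bp. These are the authors' values and were used only within a list, to describe, rank or filter peaks. No gene annotation or genome of that build was used.

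Shared regions were the intersections of BRD2 peaks of replicates 1 and 2, overlap of at least 1 bp counted as carrying a mark, and a region had a mark when both lists did. Coordinates are 1-based. For H3K9me3 replicate 2 the description names another replicate number, and the title was followed. Named regions were the 10 members with the highest lower BRD2 −log10 q and the 3 farthest from H4K5acK8ac. Also named were the 3 with peaks in most of the 18 lists (ties by position) and the 3 largest clusters with their strongest member. The 2 regions just inside and just outside the rule were named too. Others are said to be chosen after their values were seen. The members and lists were chosen with earlier results of these data known. No pair of lists was identical. Alternatives were other overlaps, q thresholds, distances, single lists, and leaving out Y. Python 3.11.15 with numpy 2.4.6, pandas 2.3.3 and scipy 1.17.1 was used, and the interval code was tested on 20 pairs of simulated lists, all recovered base by base.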

Additional observations from a re-analysis of the deposited data

How the results depend on the processing

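The lists carry no depth, BRD2 calls at members are weak, and the limits drawn around centromeres and clusters are set by hand. Of 63 comparisons of a main result with an alternative, 24 stayed within the spread between lists, the counting interval or, for the number of members, 1.5 times its value. No paired analysis was possible because no result comes from a test and the replicate numbers of different targets name no shared sample. Beyond the construction of each alternative (fewer regions, a stricter mark or another distance), the cause of a change was not tested.

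With BRD2 peaks of −log10 q of at least 1.3, there were 96 members, 68.8% with H3K9me3 or H3K27me3, 4.17% with H3K4me1, 1.04% with H3K4me3, 4.17% with H3K36me3, a median distance of 3118 bp to H4K5acK8ac, 51.9% near the centromeric stretch and 46.9% clustered. With no H4K5acK8ac peak within 1000 bp, the shares were 5.48% for a single acetylation mark, 1.94% for H3K4me1, 0% for H3K4me3, 8.71% for H3K36me3 and 31.6% for a repressive mark. The acetylated share was 6.25% when 50% of the region had to be covered and 7.07% with mark peaks of −log10 q of at least 1.3. The share near the centromeric stretch was 13.0% within 1 Mb and 24.3% within 10 Mb, and the clustered share 16.0% within 10 kb and 45.7% within 1 Mb. Alternatives chosen after seeing the data left out Y, which gave 30.7% with a repressive mark, 0.870% with H3K4me3 and a median distance of 11934 bp, or took any peak-free stretch of at least 2.5 Mb with Y included, which gave 24.7% near.

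With 1 list of a mark left out, the shares ran from 17.4% to 19.3% for a single acetylation mark, 40.5% to 42.7% for a repressive mark, 6.25% to 7.07% for H3K4me1 and 8.15% to 8.97% for H3K36me3, and came to 1.09% for H3K4me3 either way. Leaving out 1 list of H4K5acK8ac or BRD2 gave from 392 to 35617 members, the highest where 1 BRD2 list stood alone. Leaving out 1 H4K5acK8ac list gave a median distance from 13275.5 to 15020 bp, 18.4% to 33.2% near the centromeric stretch and 25.3% to 39.0% clustered.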
